A study of Orestias ascotanensis with 42 samples.

Results

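Fish netted in summer and fish netted in winter were compared for gene expression in the gills. The species, Orestias ascotanensis, is an Andean killifish living in the springs of the Ascotán salt pan. The 14 gill libraries, of 42 in the series, were chosen by the tissue and the season in their titles: 7 are from fish of the summer collection of January 2020 and 7 from fish of the winter collection of July 2019. All fish were wild and were taken at 3740 m, each gave 1 poly-A library of unstranded 150 bp read pairs per tissue, and their age and sex are not given in the labels. Each season was sampled in 1 year only, so a difference between seasons cannot be told apart from a difference between years or collections. The season tag of gills winter 7 reads summer and that of gills summer 1 reads winter; the titles were followed. Counts summed to between 42711945 and 101623705 per gill library.

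The fish gill exchanges gases between blood and water across thin lamellae. It also moves salts and acid equivalents through ionocytes, mitochondria-rich cells that carry ion pumps and transporters, and it excretes ammonia. The organ is built of pavement cells, ionocytes, mucous cells, pillar cells around the blood spaces, blood cells and supporting cartilage. In RNA from whole gills, fewer cells of a type and less RNA per cell cannot be told apart. The deposited table does not pair its identifiers with gene names, so the defining markers of these cells could not be looked up, and genes are described by their level, size of difference and tissue pattern. By their whole profiles the libraries were of 1 kind: Pearson's r of log2 CPM (CPM, counts divided by the library size after TMM scaling) between 2 gill libraries was, in the scaling of all 42 libraries, 0.968 or more, and the highest r of any gill library with a skin or muscle library was 0.890.

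Several gill libraries were closer to each other than the rest, and this bears on every comparison below. The spread of the log2 count ratio between 2 libraries (median absolute deviation, MAD) had a median of 0.270 over the 21 winter pairs, 0.301 over the 21 summer pairs and 0.300 over the 49 pairs across seasons. It was 0.0746 between winter 2 and 7, 0.0766 between winter 3 and 6, and 0.0971 between summer 4 and 7. Across seasons, summer 1 was at 0.139 from winter 2 and at 0.140 from winter 7. By these medians, libraries of different seasons were no further apart than libraries of summer.

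**Figure D1:**
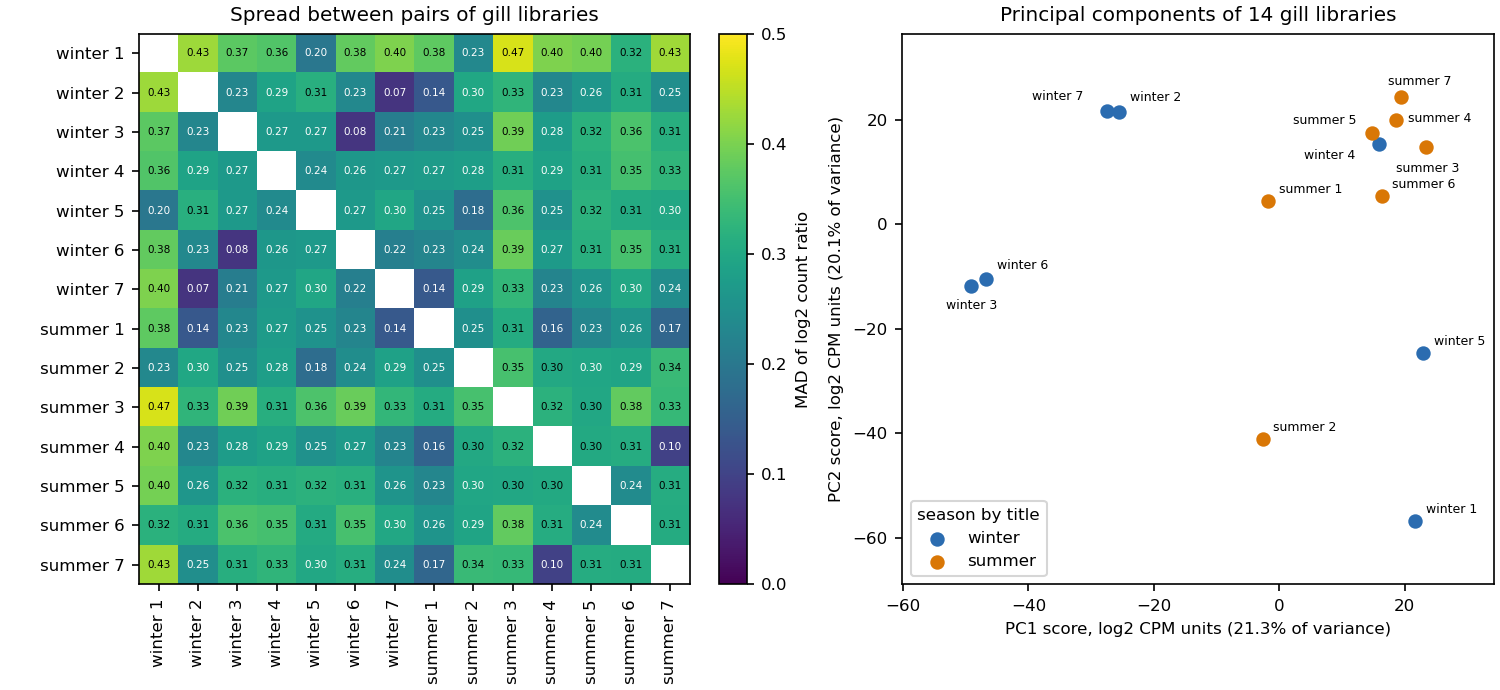
Left, MAD of the log2 count ratio for each pair of the 14 gill libraries, taken from genes that reach 1000 counts in that pair; right, scores on the first 2 principal components of log2 CPM, coloured by season. The 3 pairs with a MAD under 0.1 lie side by side on the right, and summer 1, summer 2 and winter 5 lie between other libraries.

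The libraries summer 1, summer 2 and winter 5 were matched by weighted sums of the other profiles. The other 11 libraries were reduced to 8 profiles, 4 of winter and 4 of summer, by averaging the 3 close pairs. Each of the 3 libraries was written as a sum of these profiles with weights of 0 or more. The fit was by least squares over 11898 genes, in CPM without TMM scaling and with each gene divided by its mean CPM. Summer 1 was best matched by 42.5% of winter 2 and 7 and 34.3% of summer 4 and 7, with 8.29% of winter 1, 7.37% of winter 3 and 6, and under 4% of each other profile. The MAD that remained was 0.0680, against 0.127 for its closest single profile. Winter 5 was best matched by 50.8% of winter 1 and 33.9% of summer 4 and 7, with a remaining MAD of 0.0924 against 0.188. Summer 2 was best matched by 52.4% of winter 1 and 35.8% of winter 3 and 6, with 0.126 against 0.224. When each of the 8 profiles was fitted in the same way from the other 7, the remaining MAD was 0.148 to 0.287. These fits had fewer profiles to draw on and were not offered the 3 libraries, so the MADs are not on equal terms.

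**Figure D2:**
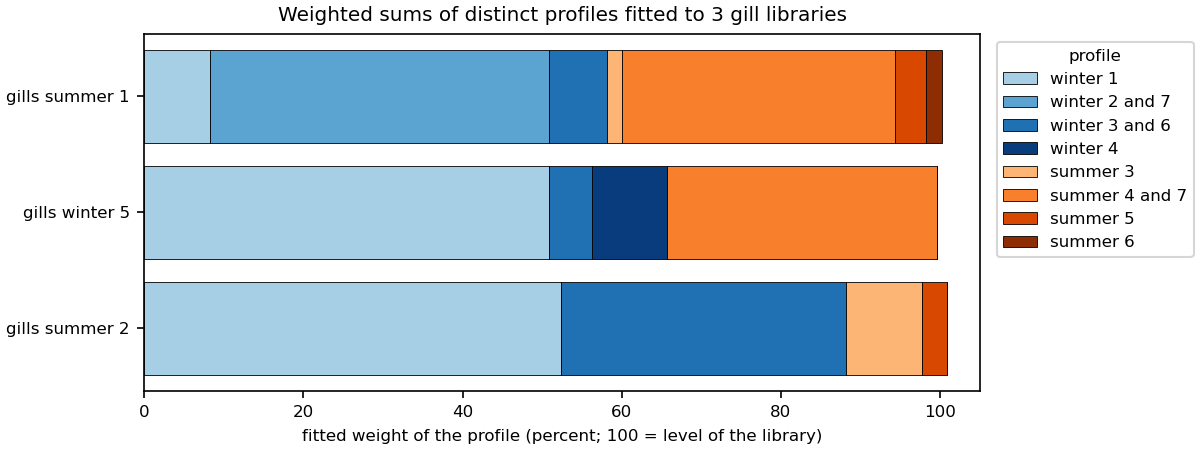
Fitted weights of the 8 distinct gill profiles, in percent, for the 3 libraries matched by weighted sums; blue profiles are of winter and orange profiles of summer. Summer 2 is matched mostly by winter profiles and winter 5 in part by the profile of summer 4 and 7.

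Genes detected mainly in 1 profile were found in these 3 libraries at lower levels, in CPM without TMM scaling. In winter 1, 20 genes had at least 3 CPM and at most 10% of that level in each of the other 7 profiles; their median level relative to winter 1 was 65.1% in summer 2, 49.6% in winter 5 and 15.7% in summer 1. For the 4 such genes of summer 4 and 7 it was 50.5% in winter 5, 32.3% in summer 1 and 2.80% in summer 2. For the 2 such genes of winter 3 and 6 it was 43.1% in summer 2, 14.9% in summer 1 and 3.92% in winter 5. For the 3 of winter 2 and 7 it was 37.1% in summer 1, 5.83% in winter 5 and 4.91% in summer 2. For the genes of the other 4 profiles, summer 3, summer 5, summer 6 and winter 4, it was 0.484% to 3.24% in all 3 libraries, although summer 2 was fitted with 9.51% of summer 3 and winter 5 with 9.35% of winter 4. Summer 1, summer 2 and winter 5 had no such gene of their own (0 of 21024 genes in each), while the 8 profiles had between 2 and 20. These numbers are not on equal terms. A profile was held only against the other 7 profiles, and each of the 3 libraries against all 8. The origin of the closeness between libraries was not tested. The limits used here were set after seeing the data. The counts below are given for the 14 libraries. Several of them, but not all, are also given for the 11 libraries without these 3 or for the 8 distinct profiles.

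The comparison of summer with winter asked which genes of the gill differed between the seasons. No gene of the 18409 tested passed an adjusted p of 0.05 in edgeR's quasi-likelihood test (0 genes, 0% of those tested), and the smallest adjusted p was 0.0973. Before adjustment 2669 genes (14.5% of those tested) had a p under 0.05, where 920 would be given by the threshold alone. Of these, 1119 were higher in summer (6.08%) and 1550 lower (8.42%). On the same counts limma voom called 0 genes at the adjusted threshold, with 2636 at an unadjusted p under 0.05. DESeq2 called 398 (2.16%), of which 139 were higher and 259 lower, and limma voom with quality weights 831 (4.51%), with 262 higher and 569 lower; 327 genes were in both sets, 82.2% of the first and 39.4% of the second. Because close libraries are counted as separate fish, these p-values measure only the spread between the libraries.

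The result moved with the libraries kept. Without summer 2, edgeR called 135 genes, 39 higher and 96 lower in summer. Without summer 1, summer 2 and winter 5 it called 11 genes, 5 higher and 6 lower, and 3355 genes had an unadjusted p under 0.05 (1553 higher and 1802 lower). With the 8 distinct profiles, 4 against 4, it called 0 genes, and 1578 had an unadjusted p under 0.05, of which 868 were higher and 710 lower. Without winter 4 alone, 2873 genes had an unadjusted p under 0.05, 1482 higher and 1391 lower. The larger number of lower genes seen with 14 libraries was thus not seen with the 8 profiles or without winter 4. In 1 fit of all 42 libraries it was not seen either, with 194 higher and 78 lower. These 272 genes are fewer than the 963 that the threshold alone would give, so nothing is read from their direction. The larger number of lower genes was kept with near-identical libraries averaged (609 higher and 850 lower) and with the season from the tag (698 and 805). Winter profiles held 58.1% of the fitted weight in summer 1, 87.5% in summer 2 and 65.9% in winter 5. Fitted from the other profiles, summer 4 and 7 had 64.7% of winter weight, and the other summer profiles 29.0% to 39.1%. Winter weight was 30.1% in winter 4, 49.2% in winter 1, 49.6% in winter 2 and 7, and 94.4% in winter 3 and 6. These profiles had fewer of their own season to draw on. Weight from the other season was thus not particular to the 3 libraries. Leaving out libraries matched in part by the other season can by itself widen a difference between seasons.

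The 4 identifiers given here had the smallest p in each direction among genes averaging 1 or more in log2 CPM. OAV3G000019558 was the most abundant of them. Its level ran from 629.8 to 706 CPM in winter, with a median of 673, and from 785 to 1285 CPM in summer, with a median of 898, so the seasons did not overlap. Summer 3 was highest and summer 2 lowest among the summer libraries. The means were 943 ± 177 and 668 ± 27.9 CPM (SD, n = 7), and the log2 fold change was 0.50 ± 0.10 (SE; edgeR adjusted p = 0.128).

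OAV3G000014858 ran from 80.7 to 104.9 CPM in winter, with a median of 89.6, and from 102 to 149.6 CPM in summer, with a median of 121. The ranges overlapped in 1 place: winter 4, the highest winter library, was above summer 1, the lowest summer library. The log2 fold change was 0.45 ± 0.09 (SE; edgeR adjusted p = 0.128), with 7 of 7 summer libraries above the winter median.

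In the other direction, OAV3G000018138 ran from 32.1 to 40.8 CPM in winter, with a median of 34.7, and from 21.6 to 28.8 CPM in summer, with a median of 26.2. OAV3G000015627 ran from 47.4 to 62.3 CPM in winter, with a median of 51.7, and from 35.4 to 44.6 CPM in summer, with a median of 40.6. For both genes every summer library lay below every winter library. The log2 fold changes were -0.48 ± 0.08 and -0.42 ± 0.07 (SE; edgeR adjusted p = 0.0973 for each).

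These 4 genes kept their direction in all 27 alternatives run for each. They were picked by p from these same libraries, which the alternatives reuse, so the kept direction is no separate test. The 4 genes passed the adjusted threshold in 3 of the 27 alternatives: DESeq2, limma voom with quality weights, and edgeR without summer 2. Without the 3 matched libraries the adjusted p was between 0.0597 and 0.0737, and with the 8 profiles it was 0.580 for each; over all alternatives the 4 genes ranged from 1.67e-04 (DESeq2) to 1.00 (edgeR, 1 fit of all 42 libraries). None of the 4 is among the gill-enriched genes described below.

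**Figure D3:**
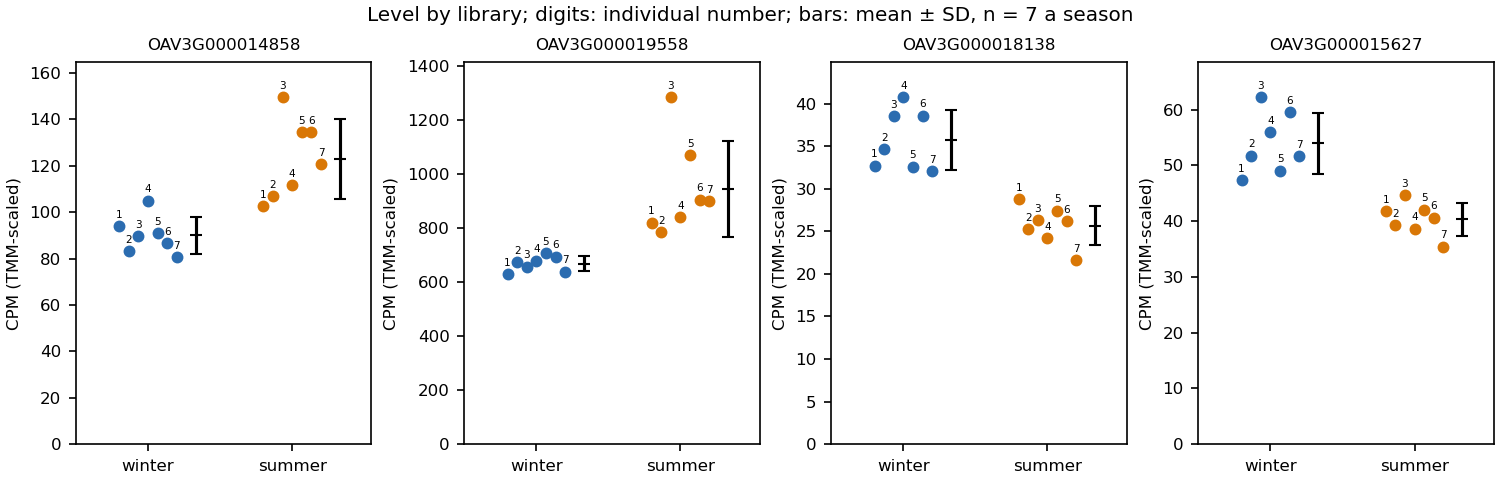
Level of the 4 genes with the smallest p in each direction, in CPM scaled by TMM, in each of the 7 winter and 7 summer gill libraries; black bars give the mean ± SD. The seasons overlap only in OAV3G000014858, where winter 4 lies above summer 1.

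Most differences were small. Over the 18409 genes the median absolute log2 fold change was 0.13, and 90% of the genes lay within 0.37. A difference of at least 2-fold was seen in 132 genes, 81 higher and 51 lower in summer, and 11 of them differed by at least 4-fold. Of the 132, 59 had an unadjusted p under 0.05 (46 higher and 13 lower). Of these 59, 45 had an average log2 CPM under 1 and 0 had one of 5 or more. In the season where such a gene was higher, the highest of the 7 libraries held a median of 30.1% of the summed level, where equal levels would give 14.3%. That library was summer 6 for 13 of the genes, summer 5 for 12 and summer 2 for 2, and it was neither summer 1 nor winter 5 for any. A winter library could be the highest only for the 13 lower genes.

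Single libraries weighed on the largest folds among genes averaging 1 or more in log2 CPM with an unadjusted p under 0.05. The 2 genes of this kind with the largest folds in each direction are described without identifiers, because the 2 risers and 2 fallers are already given. The first averaged 1.04 ± 1.43 CPM in winter and 6.21 ± 5.52 in summer (SD, n = 7), and summer 5 was highest at 16.6 CPM. Its log2 fold change was 2.57 with an SE of 1.03 (edgeR adjusted p = 0.285). The second was at 0.859 CPM or less in 6 winter libraries and at 4.09 in winter 5. In summer it ran up to 7.22 CPM and was lowest, at 0.493, in summer 2. Winter 5 and summer 2 are among the 3 matched libraries, so leaving these out widens its difference by construction. Its log2 fold change was 2.03 ± 0.67 (SE; edgeR adjusted p = 0.213), and without the 3 matched libraries it was 3.30 with an edgeR adjusted p of 0.0148, the lowest over its alternatives, which reached 1.00.

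Among the lower genes the largest fold belonged to a gene at 6.58 ± 3.05 CPM in winter and 2.48 ± 2.47 in summer (SD, n = 7). It was at 6.41 CPM in summer 2 and 5.72 in summer 1, and at 1.41 or less in the other 5 summer libraries. Summer 1 and summer 2 are among the 3 matched libraries, so leaving these out widens its difference by construction. Its log2 fold change was -1.40 ± 0.57 (SE; edgeR adjusted p = 0.288), and without the 3 matched libraries -2.73 with an edgeR adjusted p of 0.0445, again the lowest over alternatives that reached 1.00. Winter 4, at 1.40 CPM, lay with the low summer libraries. The second averaged 3.01 ± 1.35 and 1.57 ± 0.68 CPM (log2 fold change -0.94 ± 0.32, edgeR adjusted p = 0.219). Over its alternatives the adjusted p ran from 0.0349, in limma voom with quality weights, to 1.00.

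The direction of the differences varied with how abundant a gene was. When the genes were divided by average level into 5 classes of equal size, the lowest class, under 2.94 CPM, had 167 genes higher and 80 lower in summer at an unadjusted p under 0.05, or 4.54% and 2.17% of the class. In the highest class, from 64.3 CPM, 219 were higher and 546 lower, or 5.95% and 14.8%. The 3 classes between had 259 against 197, 262 against 327 and 212 against 400. Over all genes the shares were 6.08% and 8.42%. The median log2 fold change went from 0.08 in the lowest class to -0.05 in the highest, while the median SE went from 0.28 to 0.09. By library, the median of the lowest class relative to the mean of the 14 ran from -0.18 to 0.16 in winter and from 0.02 to 0.13 in summer (log2 scale). The close pairs winter 2 and 7 and winter 3 and 6 were below every summer library, and winter 1, 4 and 5 were within or above the summer range. The counts by class are for the 14 libraries only.

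Within the highest class the most abundant genes went the other way. Of the 100 genes with the highest mean CPM, which reached from 927 to 14264 CPM, 26 were higher and 2 lower in summer at an unadjusted p under 0.05. Their median log2 fold change was 0.14, and 75 of 100 had a positive value. The next 400 genes, up to rank 500, had 61 higher and 49 lower (15.25% and 12.25%), with a median of 0.002. Among genes ranked after the first 500 and up to rank 4000, 151 of 3500 were higher and 535 lower, with a median of -0.05. Rank 4000, at 59.6 CPM, lay just below the highest class. Over all genes tested the shares were 6.08% higher and 8.42% lower. These ranks were chosen after seeing the data. With the 8 distinct profiles the first 100 genes had 27 higher and 0 lower (4.71% and 3.85% of all genes tested). Their median was then 0.24, the highest over the alternatives run. Without winter 1 they had 23 higher and 7 lower (6.35% and 9.03% of all genes), with a median of 0.12. In 1 fit of all 42 libraries they had 5 higher and 0 lower, with a median of 0.15. In that fit 272 of 19258 genes had an unadjusted p under 0.05, fewer than the 963 given by the threshold alone, and 71.3% of the 272 were higher. None of the 10 most abundant genes had an unadjusted p under 0.05 with 14 libraries.

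**Figure D4:**
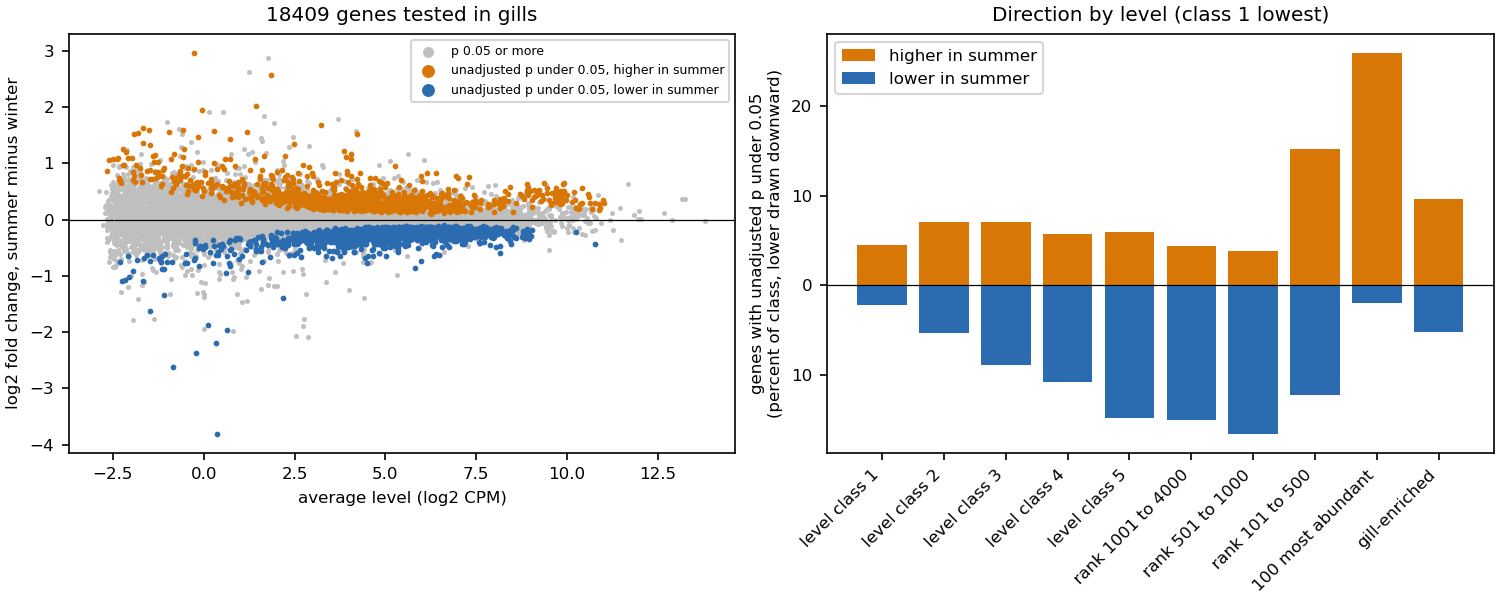
Left, log2 fold change (summer minus winter) against average level in log2 CPM for each gene tested in gills; right, percent of each level or rank class with an unadjusted p under 0.05, higher genes drawn upward and lower genes downward. Lower genes gain share from class 1 to class 5, and the 100 most abundant genes show the reverse.

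The shift of the abundant genes was carried unequally by the libraries. Relative to each gene's mean over the 14 libraries, the median of the 100 genes ran from -0.24 to -0.01 in winter, with a median of -0.06, and from -0.11 to 0.28 in summer, with a median of 0.03 (log2 scale). Summer 3, 5, 6 and 7 were above every winter library, and summer 1, 2 and 4 were within the winter range. Summer 3 was highest, and it was also the library with the fewest counts. Winter 1 was lowest. Without summer 3 the median log2 fold change of the 100 genes was 0.11, and without winter 1 it was 0.12.

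**Figure D5:**
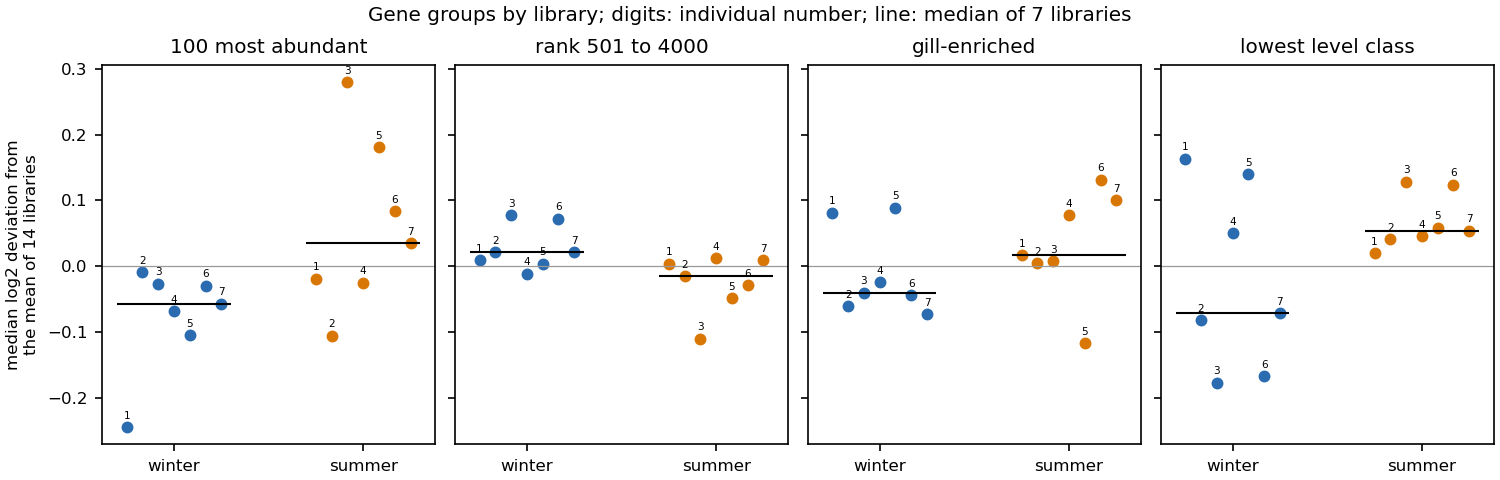
Median log2 deviation of 4 gene groups from the mean of the 14 libraries, for each gill library; the line marks the median of the 7 libraries of a season. Summer 3 and 5 are highest for the 100 most abundant genes, and all 4 groups overlap between the seasons.

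Few genes separated the seasons completely. In 127 genes (0.69% of those tested) the 7 summer levels and the 7 winter levels did not overlap: 28 were higher (0.152%) and 99 lower in summer (0.538%). If every split of the libraries into 7 and 7 were equally likely, the share would be 5.83e-04 (a fraction, not a percentage). Some libraries are close to each other, within a season and across seasons, so the splits are not equally likely. That share is therefore no measure of what these 14 libraries would give without a seasonal difference. Their log2 fold changes had a median of 0.30 in the higher genes and -0.28 in the lower ones, and 0 of the 127 reached 2-fold. These were genes of middle to high level, with a median of 49.6 and 47.2 CPM. The count was 379 without summer 2, 633 without the 3 matched libraries and 958 with the 8 profiles, where fewer libraries overlap less by construction. Equally likely splits also give a larger share there, so these counts are not on equal terms with the 127. Following the season tag, which exchanges summer 1 and winter 7, left 3.

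Gill-enriched genes were taken as those whose log2 level in gills exceeded that in skin and that in muscle by 2 or more, averaged over the seasons; 791 genes met this, and 790 of them passed the filter on low counts in gills. In 76 of them (9.62%, against 6.08% of all genes) the level was higher in summer at an unadjusted p under 0.05, and in 41 (5.19%, against 8.42%) it was lower. Their median log2 fold change was 0.06, against 0.00 over all genes tested, and 0 passed the adjusted threshold. Of 365 genes that exceeded both by 3 or more, 49 were higher and 13 lower, with a median of 0.11. With the 8 profiles 50 of 788 gill-enriched genes were higher and 22 lower (4.71% and 3.85% of all genes tested). Without the 3 matched libraries 117 of 789 were higher and 45 lower (8.41% and 9.75% of all genes). With near-identical libraries averaged the counts were 27 and 24 of 791 (3.29% and 4.59% of all genes). With the season from the tag they were 33 and 24 of 790 (3.79% and 4.37% of all genes). By library the median of the 790 genes ran from -0.07 to 0.09 in winter, with winter 1 and 5 highest, and from -0.12 to 0.13 in summer, with summer 5 lowest and summer 6 highest. The seasons overlapped over most of that range. The list was defined from these same libraries with season averaged out, and nothing is read from it beyond these counts.

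The share of the gill counts held by genes enriched in muscle or in skin was also taken. Such genes are lower in gills by definition, so a small share largely follows from the choice. The share does not separate carried-over tissue from expression by the gills. Muscle-enriched genes, defined as the gill-enriched genes were, held 0.720% to 2.23% of the counts in winter, with a median of 1.07%. In summer they held 0.818% to 1.72%, with a median of 1.30%. Winter 4 had the highest share. Skin-enriched genes held 0.411% to 0.736% in winter and 0.428% to 0.736% in summer. The part of these shares in the differences of single genes was not tested.

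The spread between libraries was measured within each season. The median SD of log2 CPM over the tested genes was 0.22 in winter and 0.23 in summer, and 51.3% of the genes had the larger SD in summer. The median log2 ratio of the SDs, summer over winter, was 0.02, with a range of -0.10 to 0.19 when each library was left out in turn; it was 0.01 without the 3 matched libraries and -0.05 with the 8 profiles. The biological coefficient of variation from edgeR's common dispersion was 25.1% in winter and 23.1% in summer. The SD fell with level, from a median of 0.48 in the lowest class in both seasons to 0.15 in winter and 0.18 in summer in the highest. Of 15313 genes averaging 1 or more in log2 CPM, 195 had an SD over 1 in winter and 172 in summer, and 109 had it in both. Among the 100 most abundant genes the median log2 ratio was 0.34, with a jackknife error of 0.46. It was 0.05 without summer 3, 0.65 without winter 1, 0.53 without winter 4 and 0.34 with the 8 profiles.

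Whole-library measures did not separate the seasons after adjustment over 7 measures by two-sided exact permutation. The total count averaged 63363722 ± 11893167 in summer and 81195241 ± 14176656 in winter (SD, n = 7; exact p = 0.0268, adjusted p = 0.188, with 5.83e-04 the smallest p that the splits of 7 against 7 allow). The 100 most abundant genes held 19.9% ± 1.71 of the counts in summer and 18.5% ± 1.13 in winter (exact p = 0.0956, adjusted p = 0.223). The 10 most abundant held 6.90% ± 1.02 and 6.30% ± 0.639 (exact p = 0.243, adjusted p = 0.425), and summer 3 was highest at 8.97%. Without summer 3 the difference between the seasons went from 0.598 to 0.253 percentage points for the 10 genes and from 1.42 to 0.884 for the 100 genes. With the 8 profiles these differences were 0.943 and 2.32 percentage points (exact permutation, adjusted p = 0.48 for each). Genes with at least 1 count numbered 19774 ± 137 in summer and 19842 ± 151 in winter (exact p = 0.390, adjusted p = 0.455). The first 3 principal components held 21.3%, 20.1% and 14.9% of the variance. On the first, 4 winter libraries (the close pairs winter 2 and 7 and winter 3 and 6) lay at -25.5 or below. The other 3 winter libraries lay at 15.9 to 23.0, within the range of 5 summer libraries. The first component had an exact p of 0.0769 (adjusted p = 0.223), in which the libraries of a close pair count separately. The second had an exact p of 0.369 (adjusted p = 0.455) and the third one of 0.888 (adjusted p = 0.888). Each component was oriented so that summer had the higher mean. On the first the difference between the seasons was 25.2. Over the alternatives it ran from 14.3 with near-identical libraries averaged (exact permutation, adjusted p = 0.447) to 37.1 without the 3 matched libraries (adjusted p = 0.159). On the second the difference was 12.9, and it ran from 4.52 without winter 1 to 22.7 with the 8 profiles.

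An interaction test over all 42 libraries asked whether gills and the other tissues differed in their seasonal difference. Between gills and skin 0 of 19258 genes passed the adjusted threshold (0%) in edgeR, with 728 at an unadjusted p under 0.05 and a smallest adjusted p of 0.510; DESeq2 called 3 and limma voom 0. Between gills and muscle 445 genes passed (2.31%), of which 396 had the larger value of summer minus winter in gills and 49 the smaller. Of the 440 of these tested in gills alone, 55 had an unadjusted p under 0.05 there (12.5%, against 14.5% of all genes tested in gills), 0 passed the adjusted threshold, and the median absolute log2 fold change in gills was 0.12. Outside gills, muscle summer 3, 5, 6 and 7 and skin winter 2, 6 and 7 were also sets linked by a MAD under 0.15. With close libraries of the same season averaged in every tissue the gills against muscle count was 6, and with the 8 gill profiles it was 8. In the averaged setting gills summer 1 stayed separate from gills winter 2 and winter 7, although both were within the same MAD limit.

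In skin and muscle of the same fish, the 4 genes named above were measured as well. OAV3G000014858 averaged 208 ± 186 CPM in summer skin against 91.0 ± 23.3 in winter skin, and 191 ± 76.4 against 102 ± 41.9 CPM in muscle (SD, n = 7). OAV3G000019558 averaged 1245 ± 967 against 589.6 ± 64.5 CPM in skin and 601 ± 164 against 518 ± 241 in muscle. For OAV3G000018138 the values were 19.3 ± 4.87 against 25.9 ± 2.39 CPM in skin and 12.8 ± 4.77 against 16.3 ± 3.69 in muscle. OAV3G000015627 averaged 15.3 ± 6.39 against 21.7 ± 1.33 CPM in skin and 5.15 ± 1.28 against 5.50 ± 2.11 in muscle. The summer mean lay on the same side of the winter mean in all 3 tissues for each gene, and none passed the adjusted threshold in skin or muscle (edgeR adjusted p from 0.0935 to 0.864). The interaction tests of these genes gave adjusted p from 0.731 to 1.00, which does not show that the tissues responded alike.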

How the data were processed

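Per the labels' protocols, unstranded poly-A libraries were read as 150 bp pairs. The authors deposited raw counts per gene (21024 genes); the submitters' processing notes list, with no role, HISAT2 2.2.1, SAMtools 1.10, Trim Galore 0.6.6, Cufflinks and FastQC. The counting program, genome build and annotation were not given in the sources used here. Of values from 1 to 10 in gills, 76.5% were even, so a count is not shown to be 1 fragment. Reads of antisense or overlapping genes cannot be told apart without strand, and near-identical copies are uncertain.

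Groups follow the titles. Counts were tested in R 4.3.3 with edgeR 4.0.16 (robust quasi-likelihood test, two-sided, TMM, filterByExpr, Benjamini-Hochberg adjustment, threshold 0.05), summer minus winter, on the 14 gill libraries, and in 1 fit of 42 libraries for interactions. Alternatives used DESeq2 1.42.0 and limma 3.58.1; an unadjusted p under 0.05 is a description only. Log2 CPM used a prior count of 2. Each SE of a log2 fold change was derived from edgeR's test, as its absolute value divided by the square root of the F value. Weighted sums were fitted with SciPy 1.17.1 to genes with a mean of at least 10 CPM. The scripts were tested on simulated data. Named genes were the 2 with the smallest p per direction among genes averaging 1 or more in log2 CPM with 6 or 7 summer libraries past the median of winter, filled by unadjusted p since none passed the threshold, and then the 2 largest folds. The questions, lists and rules were chosen with earlier results of these data known. Marker and pathway lists written for the tissue could not be matched to any identifier, so none was tested. Whether the libraries are separate fish beyond their labels cannot be read from the counts, and the p-values measure the spread between libraries.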

Additional observations from a re-analysis of the deposited data

Results flagged for a closer look

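In 4 of 32 groups of 7 libraries checked, 1 library lay far from the other 6. The rule used gives about 1 in 20 for independent, normally distributed values. The groups reuse the same gill libraries, and 2 of those flagged are genes of low level picked by fold. That rate therefore need not hold here. The gene with the largest fold among the higher ones was at 3.91 CPM in winter 5, and the next winter library was at 1.60. The second such gene was at 4.09 CPM in winter 5, and the next was at 0.859. The share of counts in the 10 most abundant genes was 8.97% in summer 3, against 6.99% in the next summer library. On the second principal component summer 2 lay at -41.2 and the next summer library at 4.45. Winter 5 and summer 2 are among the 3 libraries matched by weighted sums of others, and without them and summer 1 the log2 fold changes of the 2 genes were 3.83 and 3.30, against 2.57 and 2.03 with all libraries. In both genes winter 5 was the highest winter library and summer 2 the lowest summer library, so larger folds follow by construction.

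In edgeR's interaction test of 42 libraries, 445 of 19258 genes (2.31%) passed the adjusted threshold for gills against muscle. The count was 6 with close libraries of the same season averaged in every tissue and 8 with the 8 gill profiles, settings that also leave fewer samples.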

How the results depend on the processing

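The number of genes past the adjusted threshold was 0 in edgeR, 398 in DESeq2, 831 in limma voom with quality weights and 11 without summer 1, summer 2 and winter 5, the last chosen after seeing the data. With 1 library left out it was 0 to 135, the highest without summer 2, and it was 0 in the other alternatives run. Genes with an unadjusted p under 0.05 numbered 2669, and 1503 with the season from the tag, 1459 with near-identical libraries averaged, 1578 with the 8 distinct profiles (also chosen after seeing the data), 4782 with quality weights, 272 in 1 fit of all 42 libraries, and 1981 to 3590 with 1 library left out. The share of higher genes among them was 41.9%, 41.7% with averaging, 46.4% with the season from the tag and 55.0% with the 8 profiles. It was 71.3% in the fit of 42 libraries, where the 272 genes are fewer than the 963 given by the threshold alone. With 1 library left out it was 39.9% to 51.6%, the highest without winter 4. With RLE scaling, which moved the median of all genes by under 0.01, it was 45.5%. Genes without overlap numbered 127, and 3 with the season from the tag, 212 with averaging, 633 without the 3 matched libraries, 958 with the 8 profiles and 119 to 379 with 1 library left out. The difference in total counts passed the adjusted threshold with the season from the tag (-20703716, exact permutation adjusted p = 0.0490) and with averaging (-19800244, adjusted p = 0.0303). The difference on the third principal component was 1.72 and ranged from -4.82 to 7.86 with 1 library left out. The gills against skin interaction had 1 gene without the 3 matched libraries and 3 in DESeq2. The gills against muscle interaction had 445 genes, 273 without the conflicting tags, 276 with the season from the tag, 6 with averaging, 206 without the 3 matched libraries, 8 with the 8 profiles, 920 in DESeq2, 120 in limma voom and 288 to 381 with 1 gill library left out. The cause of these shifts was not tested; averaging and the 8 profiles also leave fewer samples. The medians of the gill-enriched and of the 100 most abundant genes stayed positive in every alternative run (0.02 to 0.11 and 0.11 to 0.24). The alternatives reuse the same libraries, so the kept sign is no separate test. The median log2 spread ratio was 0.02 and ran from -0.10 to 0.19 over its alternatives. Its jackknife error of 0.25 is computed from the left-out values themselves, so it cannot serve as a limit for their shifts.

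The individual numbers name different fish in the 2 seasons. Deviations of same-numbered libraries correlated at -0.36 to 0.12, over 0.1 in 1 of 7 pairs, and 0 of 7 libraries correlated best with their own number. With the number as a replicate block edgeR called 0 genes and 1751 had an unadjusted p under 0.05. With the fish as a replicate block the gills against muscle count was 404 and the gills against skin count 0.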
